A study of Mus musculus with 18 samples.

Results

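The glucocorticoid receptor gene Nr3c1 and 9 genes that supply its hormone or are known to respond to it (Hsd11b1, Fkbp5, Tsc22d3, Zbtb16, Mt1, Mt2, Errfi1, Sgk1 and Klf9) were followed through RNA-seq of osterix-derived cells from mice with and without the parathyroid hormone receptor Pth1r. The set was named by gene symbol and chosen by the knockout-over-control fold changes of these libraries, which were known when it was drawn up. It holds 10 of the 54446 genes counted, and all 10 passed the filter on low counts, which 15516 genes passed. Cells were taken at postnatal day 21 from mice labelled Conditional PTH1R KO and from wild type mice serving as controls, with 3 libraries in each of 6 groups. By their sort labels the 3 subsets were GFP+ bone cells, GFP-Tm+ bone cells and GFP-Tm+ bone marrow stromal cells, called GFP-positive bone, GFP-negative bone and marrow here. All groups share descent from cells that expressed osterix (Sp7), a transcription factor of bone-forming progenitors. The series title places the deletion in osteoprogenitors. The Cre driver, what drives GFP and Tm, and whether animals were pooled are not stated, so a p-value covers only library-to-library spread, which may be in part technical.

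Glucocorticoids bind the receptor encoded by Nr3c1, which waits in the cytoplasm with heat shock protein chaperones, then moves to the nucleus and binds short palindromic DNA elements. The enzyme Hsd11b1 regenerates active corticosterone from its inert form inside the cell, while Fkbp5, a co-chaperone that the receptor itself induces, lowers the receptor's affinity for hormone. In bone, glucocorticoids are known for restraining osteoblasts and favouring marrow adipocytes. Most of the responders also answer to other signals: the metallothioneins to zinc, Sgk1 and Errfi1 to growth factors, and Klf9 to thyroid hormone.

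Promoter windows of 300 bases, 250 before and 50 after an annotated start (RefSeq, GRCm38.p6), covered 8 of the 10 genes with 16 windows, which were searched on both strands. The windows printed are those that held the classical glucocorticoid response element, several metal response elements or a cAMP response element, and capitals mark these matches. The Sgk1 window at chr10:21993640-21993939 (plus strand) holds a full glucocorticoid response element, the half-sites AGAACA and TGTTCT with 3 bases between them, starting at position -189 from the annotated start.
Sgk1: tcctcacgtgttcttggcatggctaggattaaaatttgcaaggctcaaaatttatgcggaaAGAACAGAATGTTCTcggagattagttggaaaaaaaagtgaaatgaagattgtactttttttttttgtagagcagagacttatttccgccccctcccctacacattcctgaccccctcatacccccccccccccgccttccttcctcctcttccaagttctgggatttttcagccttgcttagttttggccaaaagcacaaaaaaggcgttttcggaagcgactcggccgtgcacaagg
That element occurred in 3 of 32851 windows of all genes (0.00913%) and in no other window of the set. Its looser core, GNACA and TGTNC with 3 bases between them, lies within it, occurred in 0.475% of all windows and was also found in the Mt1 window at position -94, where it is left in lower case. In the windows of Mt2 (chr8:94172368-94172667, plus strand) and Mt1 (chr8:94178839-94179138, plus strand), capitals mark metal response elements, TGCACNC or TGCGCNC.
Mt2: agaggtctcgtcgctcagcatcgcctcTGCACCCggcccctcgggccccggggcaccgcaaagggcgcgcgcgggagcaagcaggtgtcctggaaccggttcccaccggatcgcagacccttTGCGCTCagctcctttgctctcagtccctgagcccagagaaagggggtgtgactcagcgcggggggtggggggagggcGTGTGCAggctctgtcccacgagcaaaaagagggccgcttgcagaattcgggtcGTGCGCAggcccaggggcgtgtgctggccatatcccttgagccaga
Mt1: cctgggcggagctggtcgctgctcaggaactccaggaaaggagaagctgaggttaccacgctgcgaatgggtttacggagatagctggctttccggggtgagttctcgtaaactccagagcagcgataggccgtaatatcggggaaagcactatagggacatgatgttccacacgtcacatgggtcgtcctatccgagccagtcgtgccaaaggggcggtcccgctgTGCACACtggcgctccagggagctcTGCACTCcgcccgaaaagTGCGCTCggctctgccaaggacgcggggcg
The Mt2 window held 4 of them and the Mt1 window 3, whereas 25.7% of all windows held at least 1 and 7.11% held 2 or more. In the Errfi1 window at chr4:150854820-150855119 (plus strand), capitals mark the cAMP response element TGACGTCA, which 1.79% of all windows held.
Errfi1: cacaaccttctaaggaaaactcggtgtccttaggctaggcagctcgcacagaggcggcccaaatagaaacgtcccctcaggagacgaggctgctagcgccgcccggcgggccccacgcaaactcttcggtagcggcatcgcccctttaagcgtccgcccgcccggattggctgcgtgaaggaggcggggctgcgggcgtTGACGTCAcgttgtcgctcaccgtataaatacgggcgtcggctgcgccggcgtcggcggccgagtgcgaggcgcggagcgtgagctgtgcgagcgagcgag
A match describes letters in a fixed window, not binding of a factor.

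Library totals lay between 16443595 and 27160257 counts, and values are given in CPM, the count of a gene relative to the TMM-scaled library total. Pth1r was lower in all 9 knockout libraries than in any control library of the same subset, at 0.70, 0.68 and 0.61 times the control mean in GFP-positive bone, GFP-negative bone and marrow; the counts cover the whole gene, so a message lacking the deleted part would still be counted. Its log2 fold changes were -0.52, -0.56 and -0.70, all called. With the length trend described next removed they were -0.26, -0.26 and -0.46, and only the marrow value was called (edgeR adjusted p = 0.0940, 0.0992 and 0.00519). The GFP-positive bone value was -0.33 with replicates 1 and 2 alone and not called (edgeR adjusted p = 0.0501). Knockout-over-control fold changes rose with transcript length (Spearman rho 0.44, 0.44 and 0.41 across 15511 genes, which are not independent replicates). Their median log2 value was -0.43, -0.59 and -0.54 in the shortest 10% of genes and 1.25, 0.91 and 0.83 in the longest, and values with that trend removed are given where they change a call. Replicate 3 of every group stood apart: Xist measured 1.25 to 10.3 CPM there and at most 0.193 CPM in the other 12 libraries, and 4 Y-linked genes summed to 1.11 to 3.00 CPM there and to 90.99 to 189 CPM elsewhere. Values from replicates 1 and 2 alone are therefore given beside the results they change, while replicate 3 gives no value of its own with 1 library per group. Cell markers also moved with genotype. The sum over 6 stromal markers was 659.9 to 880.3 CPM in KO and 318 to 361 CPM in controls in GFP-positive bone, 3761 to 4075 CPM in KO and 1177 to 1616 CPM in controls in GFP-negative bone and 37640 to 44920 CPM in KO and 22690 to 31490 CPM in controls in marrow. Over 4 adipocyte markers it was 103 to 159 CPM in KO and 34.8 to 38.8 CPM in controls in GFP-positive bone. In GFP-negative bone it was 630.0 to 795 CPM in KO and 225 to 265 CPM in controls. In marrow it was 7952 to 10310 CPM in KO and 4078 to 5142 CPM in controls. Adipoq is in both lists, so these sums are not separate. In marrow the stromal sum was mostly Cxcl12, which averaged 32640 CPM in KO and 21730 CPM in controls. The adipocyte sum there was mostly Lpl, which averaged 6714 CPM in KO and 2744 CPM in controls. Adipoq averaged 2083 and 1744 CPM. The 6 osteoblast markers summed to 51360 to 71450 CPM in KO and 119500 to 177000 CPM in controls in marrow. The 4 chondrocyte markers summed to 272700 to 302300 CPM in KO and 83140 to 105500 CPM in controls in GFP-positive bone, all 4 called higher. In GFP-negative bone the chondrocyte sum was 21510 to 28970 CPM in KO and 25830 to 35630 CPM in controls. There 2 of the 4 were called lower, and all 4 after correction for transcript length. In marrow that sum was 1947 to 2186 CPM in KO and 1394 to 1889 CPM in controls. Of the 4, 3 were called higher there, or 2 after that correction. The osteoblast sum in GFP-negative bone was 299200 to 468600 CPM in KO and 228300 to 258100 CPM in controls. That sum was mostly Col1a1, which averaged 366800 CPM in KO and 231700 CPM in controls. Bglap and Alpl averaged lower in KO there, at 5484 and 2682 CPM against 6391 and 3171 CPM in controls. Of the 6 markers 2 were called higher there and none lower, and 1 was called higher after correction for transcript length. The 4 mural cell markers were lower in sum in KO in each subset, at 16.9 to 28.2 CPM in KO and 31.1 to 47.1 CPM in controls in GFP-positive bone, 105 to 138 CPM in KO and 315 to 425 CPM in controls in GFP-negative bone and 165 to 220.4 CPM in KO and 744 to 2524 CPM in controls in marrow, and 0, 2 and 3 of the 4 were called lower. The 5 erythroid markers summed to 29.3 to 47.5 CPM in KO and 64.3 to 112 CPM in controls in marrow, and none of them was called. The 4 skeletal muscle markers summed to 11.8 to 22.6 CPM in KO and 5.66 to 8.47 CPM in controls in GFP-positive bone. That sum was mostly Acta1, which averaged 14.5 CPM in KO and 4.82 CPM in controls. Mylpf went the other way, at 1.60 CPM in KO and 2.67 CPM in controls. The 6 leukocyte markers summed to at most 6.55 CPM in any library, and Itgam and Cd3e were at 0 in marrow KO. In bulk RNA fewer cells of a type and less RNA per cell cannot be told apart, and the part of cell makeup in the values that follow was not tested.

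**Figure D1:**
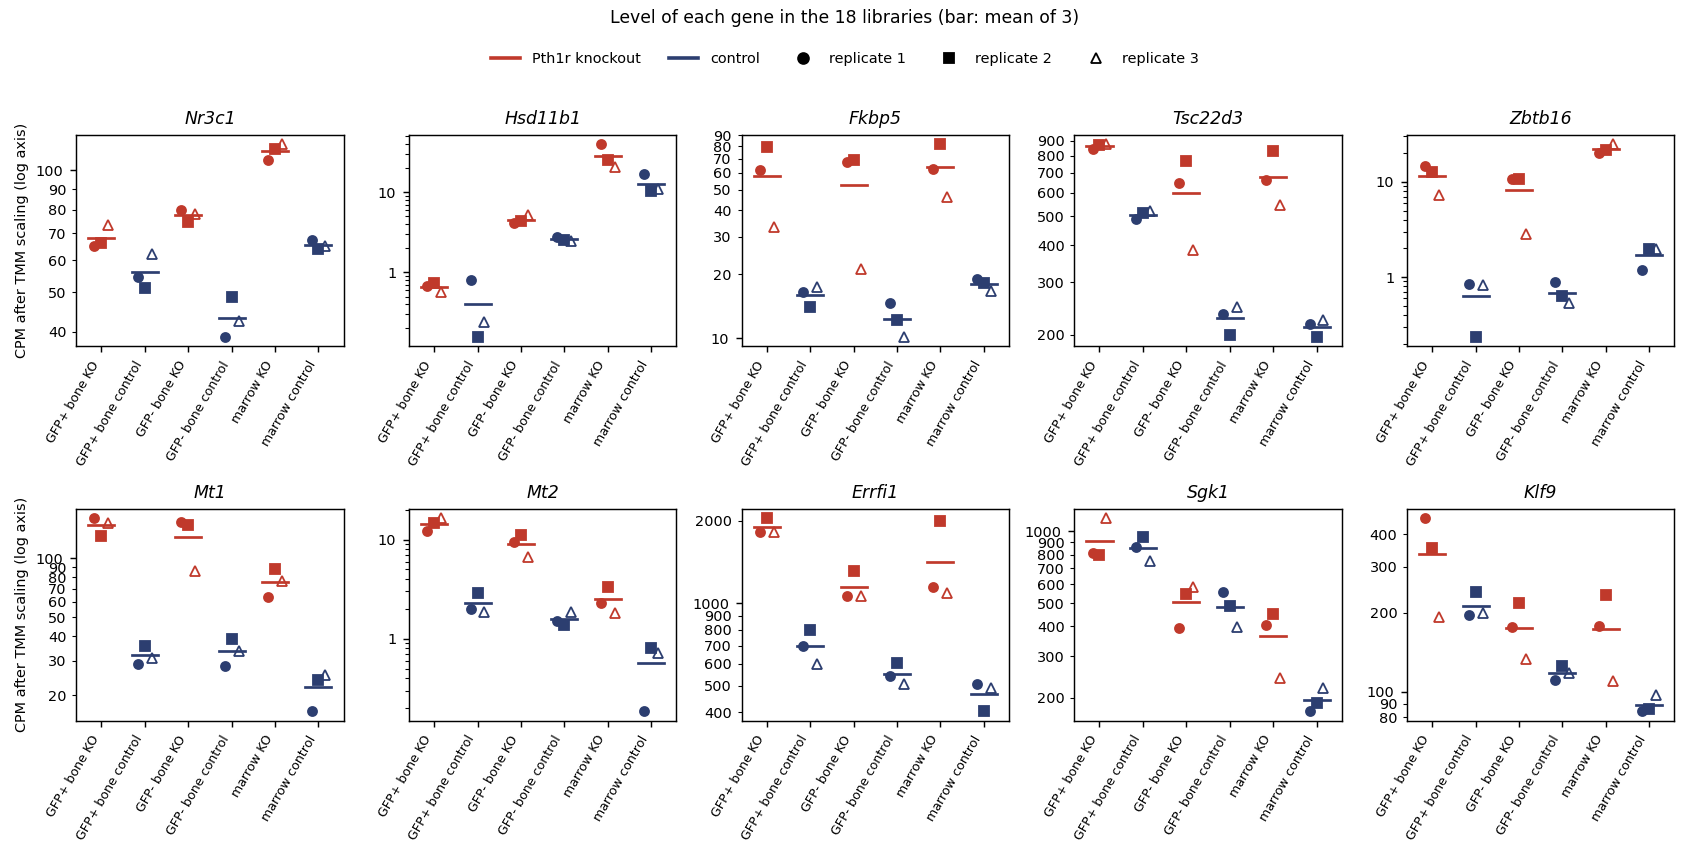
Level of each of the 10 genes in the 18 libraries, in CPM after TMM scaling on logarithmic axes that differ between panels; red marks are Pth1r knockout and blue marks control libraries, bars are means of 3, and open triangles are replicate 3. Nr3c1, Fkbp5, Tsc22d3, Zbtb16, Mt1, Mt2 and Errfi1 lie higher in the knockout than in the control libraries of each subset, without overlap, whereas Sgk1 overlaps in both bone subsets.

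Nr3c1 (chromosome 18, 39410545 to 39491301, minus strand, mm10) was expressed in every library. GFP-positive bone gave 65.0, 66.2 and 73.1 CPM in KO and 54.4, 51.3 and 62.3 CPM in controls. GFP-negative bone gave 80.0, 74.5 and 78.3 CPM in KO and 38.9, 48.6 and 42.4 CPM in controls. Marrow gave 106, 113 and 116 CPM in KO and 67.5, 63.9 and 64.9 CPM in controls. No knockout library reached down to a control library of its subset. The log2 fold changes of knockout over control were 0.28 ± 0.10, 0.84 ± 0.10 and 0.77 ± 0.09 (± standard error, here and below) in GFP-positive bone, GFP-negative bone and marrow. Nr3c1 has the longest transcript of the set, 6436 bases. With the length trend removed the values were -0.61 ± 0.10, 0.11 ± 0.10 and 0.11 ± 0.09: GFP-positive bone turned direction and was called lower, and the other subsets were no longer called. Scaling by library totals alone also turned the GFP-positive bone value, to -0.10. That value lost its call, at 0.26, 0.22 and 0.23, without control replicate 1, control replicate 2 and knockout replicate 3 of the subset. The knockout effect on Nr3c1 in GFP-positive bone differed from that in GFP-negative bone by a called log2 difference of -0.56 ± 0.14, and from that in marrow by one of -0.49 ± 0.13; after the length correction these were -0.72 and -0.71 and still called. With replicates 1 and 2 alone they were -0.49 and -0.41 and not called. Without control replicate 3 of GFP-positive bone they were -0.46 and -0.39, and without control replicate 1 of GFP-negative bone the difference between the bone subsets was -0.48, again not called.

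Hsd11b1 was expressed mainly in marrow. Marrow gave 39.8, 25.04 and 20.6 CPM in KO and 16.8, 10.4 and 11.1 CPM in controls. GFP-negative bone gave 4.13, 4.33 and 5.23 CPM in KO and 2.76, 2.57 and 2.46 CPM in controls. In GFP-positive bone the values were 0.685, 0.727 and 0.575 CPM in KO and 0.798, 0.158 and 0.241 CPM in controls, from 8 to 15 counts a library in KO and 4 to 21 in controls. Every knockout library lay above every control library in marrow and GFP-negative bone, and the groups overlapped in GFP-positive bone. The log2 fold changes were 0.70 ± 0.72 and 0.80 ± 0.36 in the bone subsets, not called, and 1.16 ± 0.22 in marrow, called. After the length correction the GFP-negative bone value was 1.18 and called.

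Fkbp5 and Tsc22d3, a pair of genes that limit glucocorticoid or inflammatory signalling, were higher in every knockout library. Fkbp5 in GFP-positive bone measured 61.6, 79.0 and 33.4 CPM in KO and 16.6, 14.0 and 17.5 CPM in controls. In GFP-negative bone it measured 67.2, 69.0 and 21.2 CPM in KO and 14.6, 12.2 and 10.2 CPM in controls. In marrow it measured 62.9, 81.8 and 46.1 CPM in KO and 19.0, 18.2 and 16.7 CPM in controls. Control libraries kept to a narrow band, while knockout libraries spread widely with replicate 3 the lowest in each subset. The Fkbp5 log2 fold changes were 1.87 ± 0.38, 2.10 ± 0.40 and 1.83 ± 0.38.

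Tsc22d3 encodes GILZ, a leucine zipper protein that carries part of the anti-inflammatory action of glucocorticoids. In GFP-positive bone it measured 845, 869 and 875 CPM in KO and 489.6, 512 and 520.1 CPM in controls. GFP-negative bone held 649, 765 and 385 CPM in KO and 235, 200 and 247 CPM in controls. Marrow held 661, 828 and 546 CPM in KO and 218, 197 and 224 CPM in controls. Control libraries of GFP-positive bone stood above all control libraries of the other subsets. The Tsc22d3 log2 fold changes were 0.77 ± 0.18, 1.40 ± 0.18 and 1.67 ± 0.18. Scaled by library totals alone, the GFP-positive bone value was 0.39 and not called. The effect in GFP-positive bone differed from that in marrow by a called log2 difference of -0.90 ± 0.25, which was -0.85 without control replicate 2 and -0.73 without knockout replicate 2 of marrow, not called either time. Against GFP-negative bone the difference was -0.63 ± 0.25 and not called, but it was -0.87 and called without knockout replicate 3 of GFP-negative bone, and -0.92 and called with replicates 1 and 2 alone.

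Zbtb16, which encodes the zinc finger repressor PLZF, had the highest log2 fold change of the set in each subset. GFP-positive bone gave 14.6, 12.7 and 7.34 CPM in KO and 0.836, 0.237 and 0.818 CPM in controls. GFP-negative bone gave 10.8, 10.7 and 2.84 CPM in KO and 0.878, 0.629 and 0.539 CPM in controls. Marrow gave 20.2, 21.6 and 24.9 CPM in KO and 1.20, 1.97 and 1.95 CPM in controls. Control libraries held few reads of it, 6 to 22, 9 to 14 and 32 to 46 counts a library in the same order, and even the lowest knockout library, replicate 3 of GFP-negative bone, lay above every control library. The log2 fold changes were 4.23 ± 0.47, 3.61 ± 0.53 and 3.72 ± 0.37, or 18.8, 12.2 and 13.2 fold, and 3.67, 3.16 and 3.31 on the log2 scale after the length correction.

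Klf9, a Krüppel-like transcription factor, moved less. GFP-positive bone held 459, 354 and 193 CPM in KO and 196, 241 and 199 CPM in controls. GFP-negative bone held 176, 218 and 133 CPM in KO and 111, 126 and 117 CPM in controls. Marrow held 178, 234 and 110.3 CPM in KO and 84.4, 85.7 and 97.1 CPM in controls. Knockout replicate 3 was the lowest of its group each time and lay below its controls in GFP-positive bone. The log2 fold changes of 0.66 ± 0.28 and 0.57 ± 0.29 in the bone subsets were not called, and 0.97 ± 0.29 in marrow was. The marrow value was 0.70 without knockout replicate 2 and 0.72 after the length correction, not called either way. With replicates 1 and 2 alone the 3 values were 0.92, 0.74 and 1.28, all called, and without knockout replicate 3 the GFP-positive bone value was 0.94 and called.

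Errfi1 (MIG6), an inhibitor of the epidermal growth factor receptor, was abundant. GFP-positive bone gave 1821, 2035 and 1812 CPM in KO and 697, 799 and 601 CPM in controls. GFP-negative bone gave 1065, 1308 and 1058 CPM in KO and 544, 603 and 509 CPM in controls. Marrow gave 1145, 1987 and 1092 CPM in KO and 505, 404 and 489.6 CPM in controls. The groups overlapped in no subset. Its log2 fold changes were 1.43 ± 0.18, 1.05 ± 0.18 and 1.59 ± 0.18.

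Sgk1, a serine/threonine kinase of ion transport and cell survival, differed by genotype in marrow, where it measured 404, 448 and 243 CPM in KO and 176, 190.0 and 220.2 CPM in controls. GFP-positive bone held 810.1, 793 and 1133 CPM in KO and 864, 949 and 753 CPM in controls. GFP-negative bone held 395, 545 and 582 CPM in KO and 559, 485 and 396 CPM in controls. The groups overlapped in both bone subsets and not in marrow. The log2 fold changes were 0.09 ± 0.21, 0.08 ± 0.21 and 0.90 ± 0.21, and only the marrow value was called. As fitted, these were the smallest fold changes of the set in both bone subsets. After the length correction they were 0.18 and 0.22 there, and Nr3c1 had a smaller one in GFP-negative bone, at 0.11. The effect on Sgk1 differed from that in marrow by -0.81 ± 0.29 in GFP-positive bone and -0.82 ± 0.29 in GFP-negative bone, not called. With replicates 1 and 2 alone these differences were -1.38 and -1.36 and called. They were also called, at -1.04 and -1.05, without knockout replicate 3 of marrow, and the GFP-positive bone difference was called at -0.99 without knockout replicate 3 of that subset.

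The metallothioneins Mt1 and Mt2, small cysteine-rich proteins that bind zinc and copper, lie side by side on chromosome 8 (94179082 to 94180327 and 94172664 to 94173568, plus strand, mm10). Mt1 in GFP-positive bone measured 159.8, 131 and 152 CPM in KO and 29.1, 35.8 and 30.9 CPM in controls. In GFP-negative bone Mt1 measured 153, 148 and 85.8 CPM in KO and 28.3, 38.9 and 33.8 CPM in controls. In marrow Mt1 measured 63.4, 88.4 and 76.7 CPM in KO and 16.6, 23.8 and 25.4 CPM in controls. Knockout libraries of Mt1 lay above all controls in every subset. Its log2 fold changes were 2.21 ± 0.20, 1.93 ± 0.20 and 1.80 ± 0.21. Mt2, with fewer counts, measured 12.2, 14.8 and 16.3 CPM in KO and 2.01, 2.92 and 1.88 CPM in controls in GFP-positive bone. GFP-negative bone held 9.50, 11.02 and 6.65 CPM in KO and 1.505, 1.36 and 1.86 CPM in controls of Mt2. The groups did not overlap in either. Marrow held 2.29, 3.36 and 1.83 CPM in KO and 0.187, 0.812 and 0.714 CPM in controls of Mt2, again without overlap. The Mt2 log2 fold changes were 2.65 ± 0.26, 2.54 ± 0.32 and 2.18 ± 0.42. These are the shortest transcripts of the set, 1085 bases for Mt1 and 511 for Mt2, and the length correction moved their values up, to 2.64, 2.46 and 2.22 for Mt1 and 2.99, 3.02 and 2.63 for Mt2. Mt2 overlaps Gm45774 on the opposite strand, which had 134 counts over the 18 libraries where Mt2 had 1786. The library kits do not mark strand, so their reads cannot be told apart where they overlap.

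**Figure D2:**
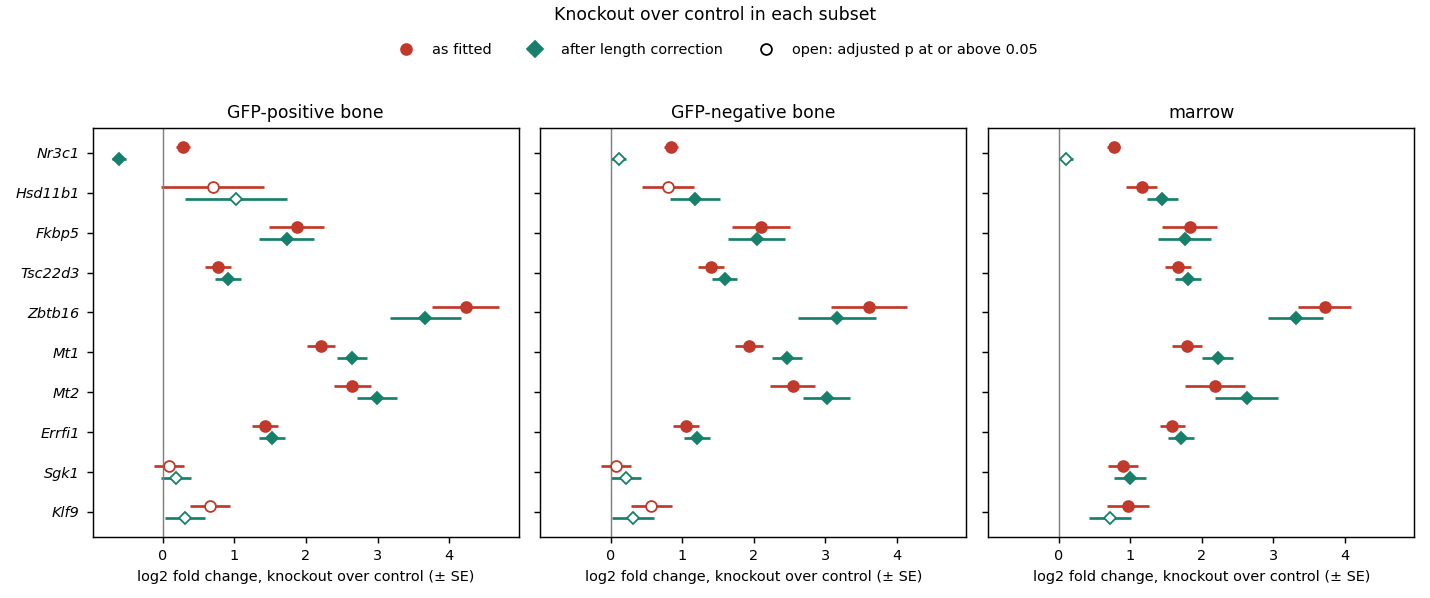
Log2 fold change of knockout over control for each gene in GFP-positive bone, GFP-negative bone and marrow, with standard errors, as fitted (red circles) and with the transcript-length trend removed (green diamonds); open marks were not called at an adjusted p of 0.05. Nr3c1 moves towards or below 0 under the correction while Mt1 and Mt2 move up, and Zbtb16 lies farthest from 0 in each subset.

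Counted together, 7, 7 and 10 of the 10 genes were called higher in KO in GFP-positive bone, GFP-negative bone and marrow, where 26.0%, 21.5% and 23.1% of all genes tested were called higher. None was called lower, where 25.3%, 25.7% and 24.8% of all genes were. The members were named with these contrasts in view, so the counts describe the set and nothing is read from them. Their median log2 fold changes were 1.10, 1.23 and 1.63, beside 0.03, -0.07 and -0.04 for all genes. Every knockout library lay above every control library for 7, 9 and 10 members, beside 28.8%, 24.7% and 26.1% of all genes. Nr3c1, Fkbp5, Tsc22d3, Zbtb16, Mt1, Mt2 and Errfi1, 7 genes, were called higher in all 3 subsets, beside 12.5% of all genes. After the length correction 6, 7 and 8 were called higher, beside 19.5%, 17.0% and 18.3% of all genes, and Nr3c1 lower in GFP-positive bone. With replicates 1 and 2 alone 8, 8 and 10 were, beside 22.8%, 17.8% and 19.3% of all genes. With library totals in place of TMM 5 rather than 7 were called higher in GFP-positive bone, as Nr3c1 and Tsc22d3 lost their calls, and 7 and 10 in the other subsets; the median of all genes was then -0.34, -0.30 and 0.08. The knockout effect differed in a called way for 2 members between GFP-positive bone and marrow (18.4% of all genes) and for 1 between the bone subsets (6.08%). Between GFP-negative bone and marrow it did so for 0 (7.79%), with edgeR and with DESeq2. With library totals it did so for 2 members, and with replicates 1 and 2 alone for 1.

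**Figure D3:**
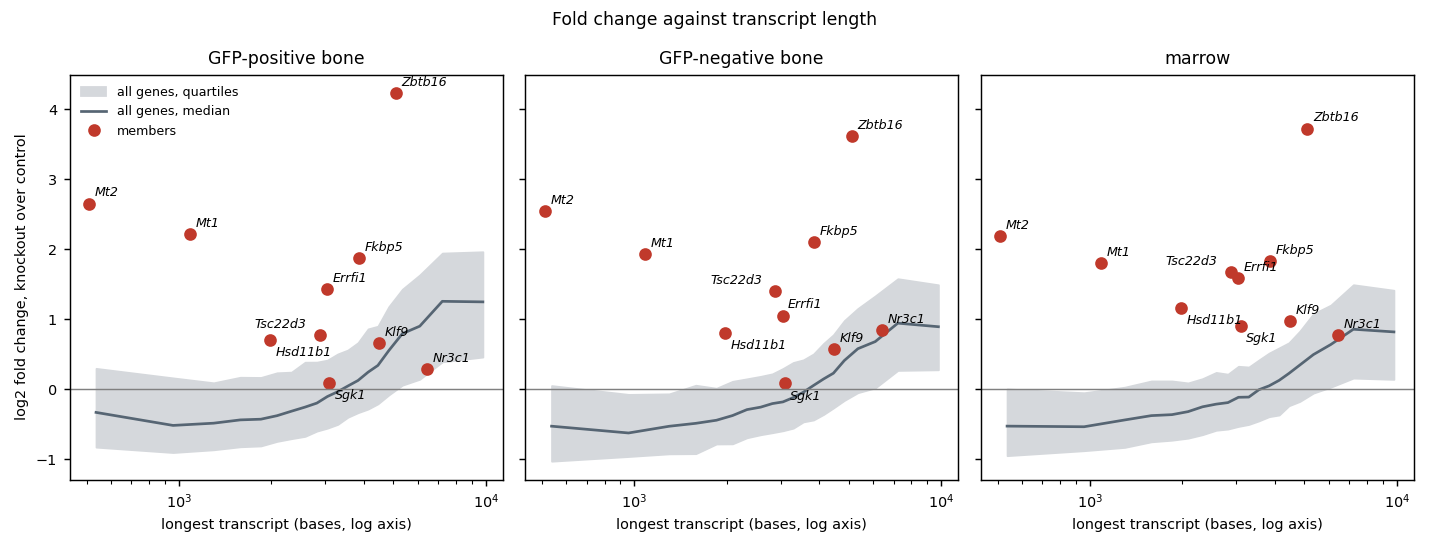
Log2 fold change of knockout over control against the longest transcript of each gene (bases, logarithmic axis) in GFP-positive bone, GFP-negative bone and marrow; the line and band are the median and quartiles of all genes tested in 20 bins of length, and red points are the 10 members. Nr3c1 lies below the median of genes of its length in GFP-positive bone, whereas Mt1, Mt2 and Zbtb16 lie far above theirs in each panel.

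Knockout replicate 3 was the lowest of its group for 5, 7 and 7 of the 10 members in GFP-positive bone, GFP-negative bone and marrow, and control replicate 3 for 3, 5 and 1. Fkbp5, Errfi1 and Klf9 were lowest in knockout replicate 3 in all 3 subsets, as were 7.54% of all genes tested. The log2 level of Fkbp5 in knockout replicate 3 minus the mean of replicates 1 and 2 was -1.06, -1.68 and -0.64. In controls the same difference was 0.20, -0.39 and -0.16. For Klf9 it was -1.06, -0.56 and -0.89 in KO, and for Zbtb16 -0.88, -1.89 and 0.25 in KO. Over all genes 5% lay below -0.85, -0.89 and -0.83 in the same knockout libraries. Fkbp5 and Zbtb16 passed those bounds in both bone subsets, and Klf9 in GFP-positive bone and marrow. With 1 such library per group, the sex-linked difference of replicate 3, its batch and its animals cannot be told apart.

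**Figure D4:**
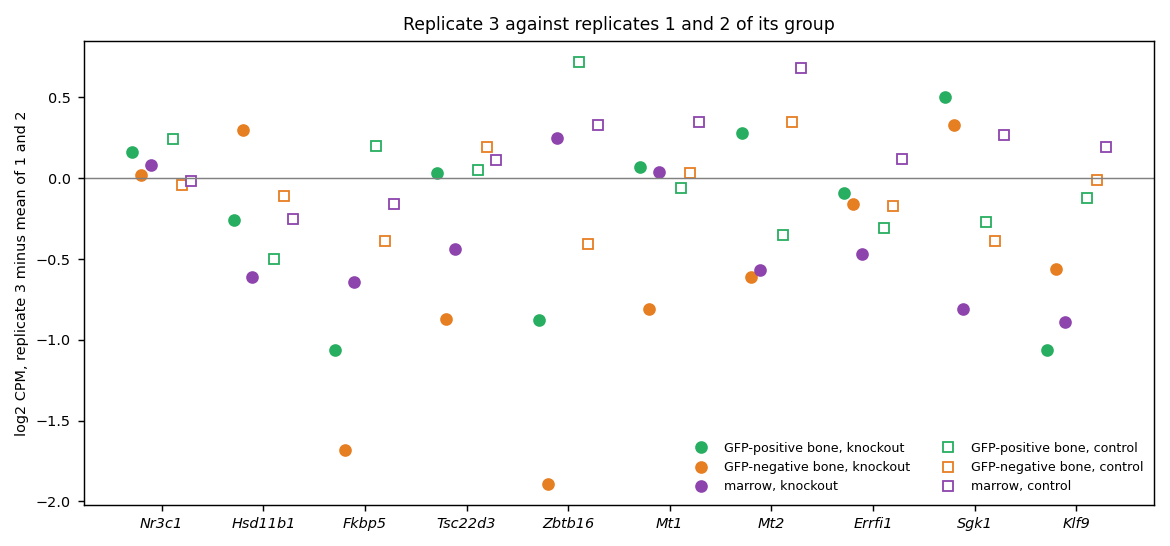
Log2 CPM of replicate 3 minus the mean of replicates 1 and 2 of the same group, for each gene, with filled circles for knockout and open squares for control groups, coloured by subset. Knockout values of Fkbp5 and Klf9 lie below 0 in every subset and those of Zbtb16 in both bone subsets, down to -1.89, while control values lie between -0.50 and 0.72.

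Subsets were also compared within a genotype, a contrast that did not choose the members. Hsd11b1 differed most. In controls its level in GFP-positive bone over marrow was -4.94 ± 0.40 in log2 (edgeR adjusted p = 3.01e-09), in GFP-negative bone over marrow -2.31 ± 0.31 (edgeR adjusted p = 7.37e-06), and in GFP-positive over GFP-negative bone -2.63 ± 0.54 (edgeR adjusted p = 0.000656). In knockouts the same log2 differences were -5.40 ± 0.36, -2.66 ± 0.26 and -2.74 ± 0.46 (edgeR adjusted p = 1.42e-10, 1.04e-07 and 6.78e-05). The enzyme that regenerates hormone was thus highest in marrow, then GFP-negative bone, in both genotypes, and leaving out any 1 library ended none of these calls. Sgk1 ran the opposite way. In controls it was higher in GFP-positive bone than in marrow by 2.13 ± 0.22, higher in GFP-negative bone than in marrow by 1.30 ± 0.21 and higher in GFP-positive than in GFP-negative bone by 0.83 ± 0.21 (edgeR adjusted p = 1.74e-07, 0.000107 and 0.0041). In knockouts GFP-positive bone exceeded marrow by 1.32 ± 0.21 (edgeR adjusted p = 2.98e-05), and GFP-negative bone over marrow was 0.47 ± 0.21 and not called (edgeR adjusted p = 0.0712). Tsc22d3 was higher in control GFP-positive bone than in marrow by 1.25 ± 0.18 and than in GFP-negative bone by 1.16 ± 0.18 (edgeR adjusted p = 1.01e-05 and 5.73e-05). Its knockout value for GFP-positive bone over marrow was 0.35 ± 0.18 and not called (edgeR adjusted p = 0.0945). Mt2 was higher in GFP-positive bone than in marrow, by 2.51 ± 0.25 in knockouts and 2.04 ± 0.44 in controls (edgeR adjusted p = 5.49e-08 and 0.000483). Nr3c1 was lower in GFP-negative bone than in marrow, with log2 differences of -0.53 ± 0.09 in knockouts and -0.59 ± 0.10 in controls (edgeR adjusted p = 0.000124 and 6.66e-05). Its GFP-positive bone over marrow value was -0.71 ± 0.09 in knockouts (edgeR adjusted p = 1.79e-06) and -0.23 ± 0.09 in controls (edgeR adjusted p = 0.044). The control value lost its call after the length correction (edgeR adjusted p = 0.234) and without control replicate 1 or 2 of GFP-positive bone or any 1 control replicate of marrow, over a range of -0.31 to -0.17.

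In all, 8, 5 and 6 members were called in either direction in knockouts for GFP-positive bone over marrow, GFP-negative bone over marrow and GFP-positive over GFP-negative bone, beside 67.3%, 46.9% and 50.4% of all genes tested. In controls 8, 5 and 5 were, beside 62.8%, 39.3% and 40.0%. These shares are near those of all genes. The control count for GFP-negative bone over marrow was 3 without control replicate 3 of GFP-negative bone or without control replicate 1 of marrow, and the knockout count between the bone subsets was 3 without knockout replicate 3 of GFP-negative bone. Fkbp5 was called in none of the 6 contrasts, with log2 differences of -0.17 ± 0.39, -0.54 ± 0.41 and 0.38 ± 0.42 in controls. Zbtb16 was lower in knockout GFP-negative bone than in marrow by a log2 difference of -1.41 ± 0.30 (edgeR adjusted p = 0.000799), and in controls the same value was -1.30 ± 0.68 and not called (edgeR adjusted p = 0.141).

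Per kilobase of merged exon, Errfi1 had the highest mean level of the members in all 6 groups. It averaged 527 ± 35.2 CPM per kb in KO and 195 ± 27.7 CPM per kb in controls of GFP-positive bone (SD, n = 3 each), where its control range overlapped that of Sgk1. Tsc22d3 and Sgk1 came next, with Tsc22d3 ahead in the 3 knockout groups and in marrow controls and Sgk1 ahead in the bone controls; their ranges overlapped in both bone KO groups. Mt1 and Klf9 followed, although the ranges of Sgk1 and Mt1 overlapped in KO of GFP-negative bone and marrow. Mt1 averaged 103 ± 30.0 and Klf9 53.8 ± 12.97 CPM per kb in GFP-negative bone KO, and Mt1 27.1 ± 4.24 and Klf9 36.1 ± 2.26 CPM per kb in its controls. Mt1 had the higher mean in all 3 knockout groups and Klf9 in all 3 control groups, and their ranges overlapped in KO of GFP-positive bone and marrow. Nr3c1 stood lower, at 15.1 ± 0.691 CPM per kb in marrow KO and 8.82 ± 0.247 CPM per kb in marrow controls. The lowest mean was that of Hsd11b1 in GFP-positive bone, 0.156 ± 0.0184 CPM per kb in KO and 0.0938 ± 0.0819 CPM per kb in controls, where the control range overlapped that of Zbtb16. In marrow it was that of Zbtb16, 4.21 ± 0.454 CPM per kb in KO and 0.323 ± 0.0833 CPM per kb in controls, with ranges that overlapped those of Mt2.

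For 4 members the genes closest in pattern were sought among 9521 genes by the root mean square difference of log2 CPM, centred on each gene's mean over the 18 libraries. Closest to Zbtb16 were Ice1, Hipk3 and Sik1 (0.67, 0.79 and 0.81, where the median over all candidates was 2.12). Closest to Fkbp5 were Rlf, Frs2 and Deptor (0.34, 0.41 and 0.41, median 1.22). For Tsc22d3 they were Ier5, Irf2bpl and Rin2 (0.30, 0.31 and 0.31, median 1.01), and for Mt1 Akap13, Hipk1 and Zfp106 (0.27, 0.32 and 0.33, median 1.27). All values come from the same libraries, which share depth and the length trend.

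Of 6 other genes that handle the steroid, 1, 2 and 2 were higher and 1, 1 and 1 lower in KO in GFP-positive bone, GFP-negative bone and marrow, against 26.0%, 21.5% and 23.1% and 25.3%, 25.7% and 24.8% of all genes. After the length correction 0, 1 and 2 were higher and 0, 1 and 1 lower, against 19.5%, 17.0% and 18.3% and 23.1%, 20.6% and 21.3% of all genes. In GFP-negative bone 1 rather than 2 were higher with replicates 1 and 2 alone. H6pd, which makes the cofactor for Hsd11b1, rose to 292 ± 82.4 CPM in KO against 102 ± 17.7 CPM in controls in marrow (log2 1.52 ± 0.17, edgeR adjusted p = 1.19e-06) and to 54.6 ± 3.48 CPM in KO against 21.3 ± 4.25 CPM in controls in GFP-negative bone (log2 1.35 ± 0.19, edgeR adjusted p = 1.05e-05). In GFP-positive bone it rose by 0.74 ± 0.18 (edgeR adjusted p = 0.00221), a value of 0.30 that missed the threshold after the length correction (edgeR adjusted p = 0.19). Hsd11b2, which inactivates corticosterone, fell to 2.36 ± 0.972 CPM in KO against 8.55 ± 0.991 CPM in controls in marrow (log2 -1.84 ± 0.27, edgeR adjusted p = 4.28e-06) and to 0.589 ± 0.130 CPM in KO against 3.42 ± 1.55 CPM in controls in GFP-negative bone (log2 -2.50 ± 0.46, edgeR adjusted p = 7.48e-05). Nr3c2, the mineralocorticoid receptor, which also binds corticosterone, rose to 8.30 ± 1.76 CPM in KO against 2.74 ± 1.25 CPM in controls in marrow (log2 1.60 ± 0.28, edgeR adjusted p = 0.000109). In marrow Hsd11b1 and H6pd were both called higher and Hsd11b2 lower. Hsd11b1 was chosen by that contrast and the list was drawn up with earlier results known, so nothing is read from these calls together. Whether the level of active hormone differed was not tested.

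Among 13 chaperones and coregulators of the receptor, 8, 8 and 8 were higher and 3, 3 and 4 lower in KO, beside 26.0%, 21.5% and 23.1% of all genes higher and 25.3%, 25.7% and 24.8% lower. After the length correction 6, 4 and 5 were higher and 2, 2 and 2 lower, beside 19.5%, 17.0% and 18.3% of all genes higher and 23.1%, 20.6% and 21.3% lower. In marrow 2 rather than 4 were lower without control or knockout replicate 3 of marrow, with replicates 1 and 2 alone and with library totals. The coactivator Ncoa3 rose to 115 ± 16.8 CPM in KO against 14.7 ± 0.966 CPM in controls in GFP-positive bone (log2 2.97 ± 0.17, edgeR adjusted p = 2.41e-10). The coactivator Ncoa1 rose in all 3 subsets, by 1.96 ± 0.18, 1.67 ± 0.17 and 1.76 ± 0.16 in log2 (edgeR adjusted p = 4.93e-08, 2.22e-07 and 6.47e-08), and by 0.95, 0.87 and 1.01, still called, after the correction. The corepressor Ncor1 rose by 0.85 ± 0.12 in GFP-negative bone and 0.76 ± 0.11 in marrow (edgeR adjusted p = 7.50e-06 and 2.15e-05), and measured -0.01 and -0.06, not called, after it. The co-chaperones Fkbp4 and Ptges3 fell in GFP-negative bone, with log2 values of -0.76 ± 0.11 and -0.64 ± 0.09 (edgeR adjusted p = 1.34e-05 and 1.26e-05).

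Of 29 other genes known to be induced by glucocorticoids, 13, 14 and 20 were higher and 1, 2 and 1 lower in KO, where 26.0%, 21.5% and 23.1% of all genes were higher and 25.3%, 25.7% and 24.8% lower, with median log2 fold changes of 0.76, 0.58 and 0.95. With library totals 8 rather than 13 were higher and 5 rather than 1 lower in GFP-positive bone. The counts of lower genes were small and turned on single libraries, reaching 3 in GFP-positive bone without knockout replicate 1, 2 in marrow without control replicate 1 or 2, and 1 in GFP-negative bone without any 1 library but knockout replicate 2. Per1, a clock gene induced directly by the receptor, rose to 38.4 ± 2.38 CPM in KO against 5.67 ± 1.85 CPM in controls in marrow. Its log2 fold changes were 1.23 ± 0.16, 1.82 ± 0.18 and 2.77 ± 0.17 (edgeR adjusted p = 2.45e-06, 1.53e-07 and 1.73e-09). Angptl4, an inhibitor of lipoprotein lipase, rose by 1.35 ± 0.17, 1.89 ± 0.16 and 1.87 ± 0.16 (edgeR adjusted p = 2.17e-06, 4.67e-08 and 4.09e-08). Glul, glutamine synthetase, rose by 1.5 ± 0.19 in GFP-negative bone and 2.24 ± 0.17 in marrow (edgeR adjusted p = 2.91e-06 and 1.35e-08). Anxa1, an anti-inflammatory annexin, rose to 558 ± 14.1 CPM in KO against 254 ± 43.0 CPM in controls in GFP-positive bone (log2 1.14 ± 0.14, edgeR adjusted p = 1.20e-06).

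Of 13 genes that glucocorticoids are known to repress, 5, 3 and 1 were higher and 1, 1 and 4 lower in KO, while 26.0%, 21.5% and 23.1% of all genes were higher and 25.3%, 25.7% and 24.8% lower. The counts were 2, 2 and 1 higher with replicates 1 and 2 alone, while 22.8%, 17.8% and 19.3% of all genes were, and 2 rather than 4 lower in marrow, while 20.2% of all genes were. After the length correction 6, 4 and 1 were higher and 0, 0 and 2 lower, and with library totals 3, 2 and 1 were higher and 1, 1 and 2 lower. Bglap (osteocalcin) fell to 463 ± 102 CPM in KO against 3030 ± 1220 CPM in controls in marrow (log2 -2.71 ± 0.28, edgeR adjusted p = 1.37e-06), beside the lower osteoblast marker sum there. That sum includes Bglap itself. The cytokine Il11 rose to 48.0 ± 24.0 CPM in KO against 2.11 ± 0.461 CPM in controls in GFP-positive bone (log2 4.48 ± 0.44, edgeR adjusted p = 8.64e-08). The adhesion molecule Icam1 rose in both bone subsets, by 1.04 ± 0.31 and 1.66 ± 0.32 (edgeR adjusted p = 0.0109 and 0.000413); with replicates 1 and 2 alone the GFP-positive bone value was 0.91 and not called (edgeR adjusted p = 0.136). Single libraries decided these counts. The higher count of 5 in GFP-positive bone was 3 without control replicate 3, and its lower count was 0 without control replicate 2. The lower count of GFP-negative bone was 0 without control replicate 2 or any 1 knockout replicate. In marrow the lower count of 4 was 2 without control replicate 3 or knockout replicate 1, and the higher count was 0 without control replicate 1 or 2 or knockout replicate 1 or 2.

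Of 7 other genes that respond to metals or oxidative stress, 3, 2 and 0 were higher and none lower in KO (all genes: 26.0%, 21.5% and 23.1% higher, 25.3%, 25.7% and 24.8% lower), and after the length correction 2, 1 and 0 were higher and 2, 2 and 4 lower (all genes: 19.5%, 17.0% and 18.3% higher, 23.1%, 20.6% and 21.3% lower). Hmox1, heme oxygenase, rose by 1.0 ± 0.25 in GFP-positive bone and 1.24 ± 0.25 in GFP-negative bone (edgeR adjusted p = 0.0027 and 0.000512). Of 13 relatives and partners of Klf9, Errfi1, Sgk1, Tsc22d3 and Fkbp5, 7, 8 and 7 were higher and 2, 4 and 2 lower, and after the correction 3, 5 and 5 were higher and 4, 4 and 2 lower, to be read against the same shares of all genes. Only 1 was lower in GFP-positive bone with replicates 1 and 2 alone. Hbegf, a ligand of the receptor that Errfi1 inhibits, rose to 176 ± 25.1 CPM in KO against 41.6 ± 5.64 CPM in controls in GFP-positive bone (log2 2.08 ± 0.28, edgeR adjusted p = 1.03e-05). Sgk3, a relative of Sgk1, fell in GFP-negative bone and marrow, with log2 values of -1.07 ± 0.10 and -0.79 ± 0.10 (edgeR adjusted p = 1.22e-07 and 4.41e-06).

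Clock genes, which vary with the hour of day, and immediate early genes, which respond to tissue handling, were counted in the same contrasts. Per1 was counted both among the clock genes and among the other induced genes above. Of 15 circadian clock genes, 11, 10 and 11 were higher and none lower in KO, where 26.0%, 21.5% and 23.1% of all genes were higher; 6, 8 and 10 were higher after the length correction, where 19.5%, 17.0% and 18.3% of all genes were. In GFP-positive bone 6 rather than 11 were higher with replicates 1 and 2 alone, and 5 were higher and 1 lower with library totals. Without knockout replicate 2 of GFP-positive bone 7 rather than 11 were higher there, and without its knockout replicate 1 a single gene was lower. Per2, a core clock repressor, rose to 78.5 ± 12.9 CPM in KO against 9.44 ± 3.17 CPM in controls in GFP-positive bone, and its log2 fold changes were 3.05 ± 0.20, 2.55 ± 0.24 and 2.46 ± 0.22 (edgeR adjusted p = 1.70e-09, 9.88e-08 and 7.65e-08). The clock genes summed to 785 to 932 CPM in KO and 489.5 to 635 CPM in controls in GFP-positive bone, 607 to 692 CPM in KO and 380.5 to 444 CPM in controls in GFP-negative bone and 636 to 856 CPM in KO and 348 to 367 CPM in controls in marrow. Of 12 immediate early genes, 2, 3 and 9 were higher and none lower, beside 26.0%, 21.5% and 23.1% of all genes higher. With library totals 1 was lower in GFP-positive bone. In GFP-positive bone 4 rather than 2 were higher without knockout replicate 3, and with replicates 1 and 2 alone 7, 5 and 10 were higher in the 3 subsets, beside 22.8%, 17.8% and 19.3% of all genes. Their sums overlapped between KO and controls in both bone subsets and not in marrow. They summed to 13890 to 27960 CPM in KO and 19490 to 20260 CPM in controls in GFP-positive bone, 12800 to 15690 CPM in KO and 11990 to 13810 CPM in controls in GFP-negative bone and 22150 to 30610 CPM in KO and 7745 to 14140 CPM in controls in marrow. Fosb, a Fos family factor, rose by 1.38 ± 0.23, 1.13 ± 0.23 and 1.77 ± 0.24 (edgeR adjusted p = 9.10e-05, 0.000689 and 1.18e-05). The labels name neither the hour of sampling nor the time from dissection to lysis, and the part of either in the members' values was not tested.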

How the data were processed

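Deposited values were raw read counts per gene, which the authors made with featureCounts, per the file headers; the submitters' processing notes also name STAR, DESeq2 and the build mm10. SMART-Seq v4 and ThruPLEX kits, which do not mark strand, were used per the labels' protocols. Symbols came from GENCODE vM21 and matched 54409 of 54446 gene IDs. Genes were filtered by filterByExpr (minimum count 10, total 15), scaled by TMM and fitted over all 18 libraries with 6 group means (12 residual degrees of freedom) by edgeR 4.0.16's quasi-likelihood F-test in R 4.3.3, with Benjamini-Hochberg adjustment over 15516 genes; a call is an adjusted p under 0.05. The standard error is the log2 fold change divided by the square root of F. The length correction subtracted each library's lowess trend (span 0.3) on longest transcript. Totals put 3 counts at 0.0966 to 0.216 CPM, for counting error only. Members and gene lists were chosen with earlier results of these data known; from each list up to 4 called genes with the smallest p, averaging at least 1 CPM in a group, were eligible to be named per comparison. Alternatives were RLE size factors, library totals, DESeq2 1.42.0, no filter, only the libraries compared, leaving out each library, a replicate block, an earlier quasi-likelihood method and replicates 1 and 2 alone. Same-numbered knockout libraries deviated together (every correlation over 0.1) for GFP-negative bone with marrow (0.126, 0.177 and 0.172) and between the bone subsets (0.149, 0.162 and 0.206); this pairing comes from the data. Scripts were tested on simulated data. Levels per kb divide by merged exon length.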

Additional observations from a re-analysis of the deposited data

Results flagged for a closer look

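The results below stood out because the knockout effect itself, in log2, differed between subsets in the edgeR fit; each value is the difference ± standard error. Of the 10 members, Nr3c1 had an effect in GFP-positive bone below that in marrow (-0.49 ± 0.13) and below that in GFP-negative bone (-0.56 ± 0.14). Tsc22d3 had one in GFP-positive bone below that in marrow (-0.90 ± 0.25). After the length correction the Nr3c1 effect was -0.61 in GFP-positive bone and 0.11 in both other subsets. With replicates 1 and 2 alone the Nr3c1 differences were -0.41 and -0.49 and not called. The Tsc22d3 difference was then -1.05 and called, but lost its call without control or knockout replicate 2 of marrow. These are descriptions, since the members were named with knockout results in view. The other genes below come from lists also drawn up with earlier results of these data known. They were named as called genes with the smallest p of their list, so their adjusted p-values carry that limit.

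Among other genes, the effect in GFP-positive bone was below that in marrow for H6pd, Per1 and Glul (-0.78 ± 0.25, -1.55 ± 0.23 and -1.70 ± 0.29; edgeR adjusted p = 0.0351, 0.000161 and 0.0005). It was also below it for the immediate early genes Egr1, Zfp36 and Junb (-0.67 ± 0.23, -1.45 ± 0.37 and -1.36 ± 0.33; edgeR adjusted p = 0.0475, 0.0131 and 0.00973). It was above it for Ncoa3, Anxa1, Gclm and Sgk3 (1.81 ± 0.25, 0.74 ± 0.19, 0.70 ± 0.19 and 0.53 ± 0.14; edgeR adjusted p = 7.04e-05, 0.0106, 0.013 and 0.013), for Hbegf and Erbb3 (2.82 ± 0.45 and 4.15 ± 1.10; edgeR adjusted p = 0.0005 and 0.0121), and for Bglap, Mmp13, Ptgs2 and Icam1 (1.80 ± 0.38, 1.60 ± 0.36, 3.07 ± 0.84 and 1.5 ± 0.43; edgeR adjusted p = 0.00438, 0.00565, 0.0234 and 0.0239). With replicates 1 and 2 alone the differences of H6pd, Bglap, Mmp13, Ptgs2, Icam1, Gclm and Sgk3 were -0.46, 1.63, 1.66, 1.82, 1.40, 0.53 and 0.50 and not called.

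Between GFP-negative bone and marrow the effect was lower in bone for Per1, Zfp36 and Junb (-0.95 ± 0.25, -1.49 ± 0.37 and -1.35 ± 0.34; edgeR adjusted p = 0.0236, 0.0213 and 0.0194). It was higher in bone for Bglap, Mmp13, Icam1 and Hbegf (2.49 ± 0.38, 1.77 ± 0.36, 2.13 ± 0.44 and 1.77 ± 0.46; edgeR adjusted p = 0.000694, 0.00548, 0.006 and 0.0259); with replicates 1 and 2 alone these 4 were 2.26, 1.89, 2.28 and 0.90 and not called. Osteoblast marker sums, which include Bglap, fell in marrow KO beside the values of Bglap and Mmp13, and the part of cell makeup was not tested.

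Between the bone subsets the effect was higher in GFP-positive bone for Ncoa3, Spsb1, Gclm and Sgk3 (1.91 ± 0.24, 1.02 ± 0.22, 0.76 ± 0.19 and 0.80 ± 0.14; edgeR adjusted p = 5.99e-05, 0.00988, 0.0235 and 0.00133) and lower for Erbb2 (-0.85 ± 0.24; edgeR adjusted p = 0.0391). Those of Gclm and Erbb2 were 0.74 and -0.77, not called, with replicates 1 and 2 alone, and Gclm was not called in either contrast after the length correction (edgeR adjusted p = 0.0562 and 0.0553).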

How the results depend on the processing

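Over all alternatives, 453 of 480 member values of knockout over control kept their direction and call, 11 lost a call, 13 gained one and 3 reversed; of 660 differences in knockout effect 641, 8, 11 and 0 did, and of 960 values between subsets 873, 58, 28 and 1. The reversed values were Nr3c1 in GFP-positive bone, at -0.10 with library totals, -0.61 with the length correction and -0.60 with the replicate block and length correction, and Errfi1 for GFP-positive bone over marrow in knockouts, at -0.18 with library totals. Members called for the knockout effect in GFP-positive bone minus marrow numbered 1 with no filter, against 2; for GFP-negative bone minus marrow 2 with library totals and 1 with replicates 1 and 2 alone, against 0. For GFP-negative bone over marrow in controls 3 were called with library totals and 8 with only the libraries compared, against 5, and for GFP-positive bone over marrow in knockouts 5 with library totals, against 8. Other induced genes higher in GFP-positive bone numbered 8 with library totals, against 13. Leaving out 1 library gave 1 to 3, 0 to 1 and 0 to 2 members for the effect differences of GFP-positive bone minus marrow, GFP-negative bone minus marrow and GFP-positive minus GFP-negative bone, 3 to 5 for GFP-negative bone over marrow in controls and 3 to 6 between the bone subsets in knockouts. For each of these changes the cause was not tested. Genes with few counts, Hsd11b1 in GFP-positive bone and Zbtb16 and Mt2 in controls, are limited by depth. The alternatives with replicates 1 and 2 alone and with the earlier quasi-likelihood method were chosen after seeing the data.

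With the replicate number as a block, members called for knockout over control were 8, 8 and 10 in GFP-positive bone, GFP-negative bone and marrow, and with block and length correction 7, 7 and 9. Same-numbered libraries of the genotypes deviated together little there (correlations -0.0634 to 0.0831), and every sample correlated best with its own number in marrow only. Replicate 3 of both genotypes did share the sex-linked difference given above, so the block also carried that difference. For GFP-negative bone over marrow in knockouts and between the bone subsets in knockouts, where the numbers paired the libraries, the block changed no member's call. In the other subset contrasts not every correlation passed 0.1, although same-numbered libraries correlated best there too. For GFP-positive bone over marrow in knockouts the correlations were 0.0972, 0.144 and 0.136, and 9 members were called with the block. In controls 8, 7 and 5 were called with it for GFP-positive bone over marrow, GFP-negative bone over marrow and between the bone subsets.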
